A study of Schizosaccharomyces pombe with 18 samples.

Results

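Genes coding for parts of the splicing machinery were followed in fission yeast, *Schizosaccharomyces pombe*, at 2 points of the growth curve and in 3 strains. The members were the *S. pombe* probe sets whose symbol on the array starts with prp, cwf, cwc, smd, lsm or usp followed by a digit, which gave 60 of the 2937 named *S. pombe* probe sets, 1 for each gene. All 60 genes matched the reference gene table by locus, and 3 of them carry other symbols there, usp104 as prp40, usp105 as prp39 and usp106 as luc7. Expression was measured on Affymetrix arrays that hold probe sets of both fission yeast and budding yeast. The 18 arrays were 3 from each of 6 groups. Every strain was SP-Q01 (h-, leu1-32) carrying a plasmid and grown in EMM2, a defined minimal medium, at 30 °C. The first carried a plasmid for overexpression of rpl32-1, the second a plasmid for overexpression of rpl32-2, and the third the empty vector (called WT, labelled as pESP3). Each was taken in early stationary phase, at an optical density (OD600) of 10, and in log phase, at an OD600 of 0.5. The genes rpl32-1 and rpl32-2 are paralogs that both code for the ribosomal protein L32. The labels call the arrays of a group biological replicates but do not say whether the cultures were grown on separate days, so the p-values measure the spread between these arrays.

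Introns are removed from pre-mRNA by the spliceosome, which is put together anew on each intron from small nuclear ribonucleoproteins (snRNPs) and many further proteins. The U1 and U2 snRNPs mark the ends of the intron, the U4/U6.U5 tri-snRNP joins them, the Prp19 complex helps to activate the assembled particle, and RNA helicases drive the catalytic steps and the release of the product. Sm proteins form a ring on most spliceosomal RNAs, and LSm proteins form a nuclear ring on U6 RNA and a cytoplasmic ring that takes part in mRNA decay. Many fission yeast genes hold introns, so splicing is part of the expression of a large share of its genes.

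Values are log2 signals after the 18 arrays were brought to a common distribution over the named *S. pombe* probe sets (quantile normalization). A change is a difference between 2 group means on this scale, given with its standard error (SE), and 1 unit is a 2-fold difference. A gene passed the test when its adjusted p was below 0.05 in the limma fit over all 2937 probe sets (Benjamini-Hochberg adjustment). Signals of different probe sets cannot be set against each other, and a change of all RNA per cell cannot be told apart from none, since the same amount of RNA went on each array. Of the members, 47 lay above the background on all 18 arrays (78.3%, against 73.2% of all named *S. pombe* probe sets), where background is the 95th percentile of the *S. cerevisiae* probe sets on the same array. Both arrays with the weakest signal stood apart: 12 members were not above background on WT early stationary array 3 and 6 on rpl32-1 log array 3, where 21.7% and 18.7% of all named *S. pombe* probe sets were not, against 0.7% to 4.7% on the others. The members lsm8 and prp18 were the dimmest, below background on 6 and 3 of the 18 arrays.

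The probe sets of the overexpressed genes did not follow the labels on every array. The rpl32-2 probe set read 13.46, 8.80 and 7.72 on the early stationary arrays labelled rpl32-2, against 13.50, 13.58 and 13.70 on those of WT. It read 13.79, 10.88 and 8.40 on the log arrays labelled rpl32-2, against 13.73, 13.78 and 13.78 on those of WT. The signal was thus below WT on 5 of the 6 arrays labelled for its overexpression. The rpl32-1 probe set read 14.25, 13.55 and 11.68 on the early stationary arrays labelled rpl32-1, against 13.48, 13.61 and 14.29 in WT. On the log arrays labelled rpl32-1 it read 14.18, 14.11 and 14.37, against 13.54, 13.58 and 14.37 in WT. Both groups overlapped in both phases. On rpl32-1 early stationary array 3 the rpl32-2 probe set read 8.96 as well, against 13.55 and 13.63 on arrays 1 and 2. Whether every array holds the strain on its label, and whether these probe sets measure the overexpressed transcripts, was not tested. The strains are therefore called by their labels, and each difference between strains is one between arrays so labelled. Genes known to mark the growth phase moved with the phase labels in WT: fbp1, the gluconeogenic enzyme fructose-1,6-bisphosphatase, read 13.99, 14.04 and 13.81 in early stationary phase, against 7.25, 7.50 and 7.78 in log phase. On the early stationary arrays labelled rpl32-2 fbp1 read 9.62, 11.83 and 14.06, so that arrays 1 and 2 lay between the phases and array 3 lay with WT. On the log arrays labelled rpl32-1 fbp1 read 7.31, 9.54 and 9.12, so that arrays 2 and 3 lay above WT log phase. The early stationary gene zym1 read 8.39, 12.32 and 10.74 on them, against 8.48, 8.55 and 9.44 in WT log phase. The log-phase gene adg1 read 11.57, 11.48 and 11.76 on them, against 11.57, 11.62 and 11.54 in WT log phase.

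**Figure D1:**
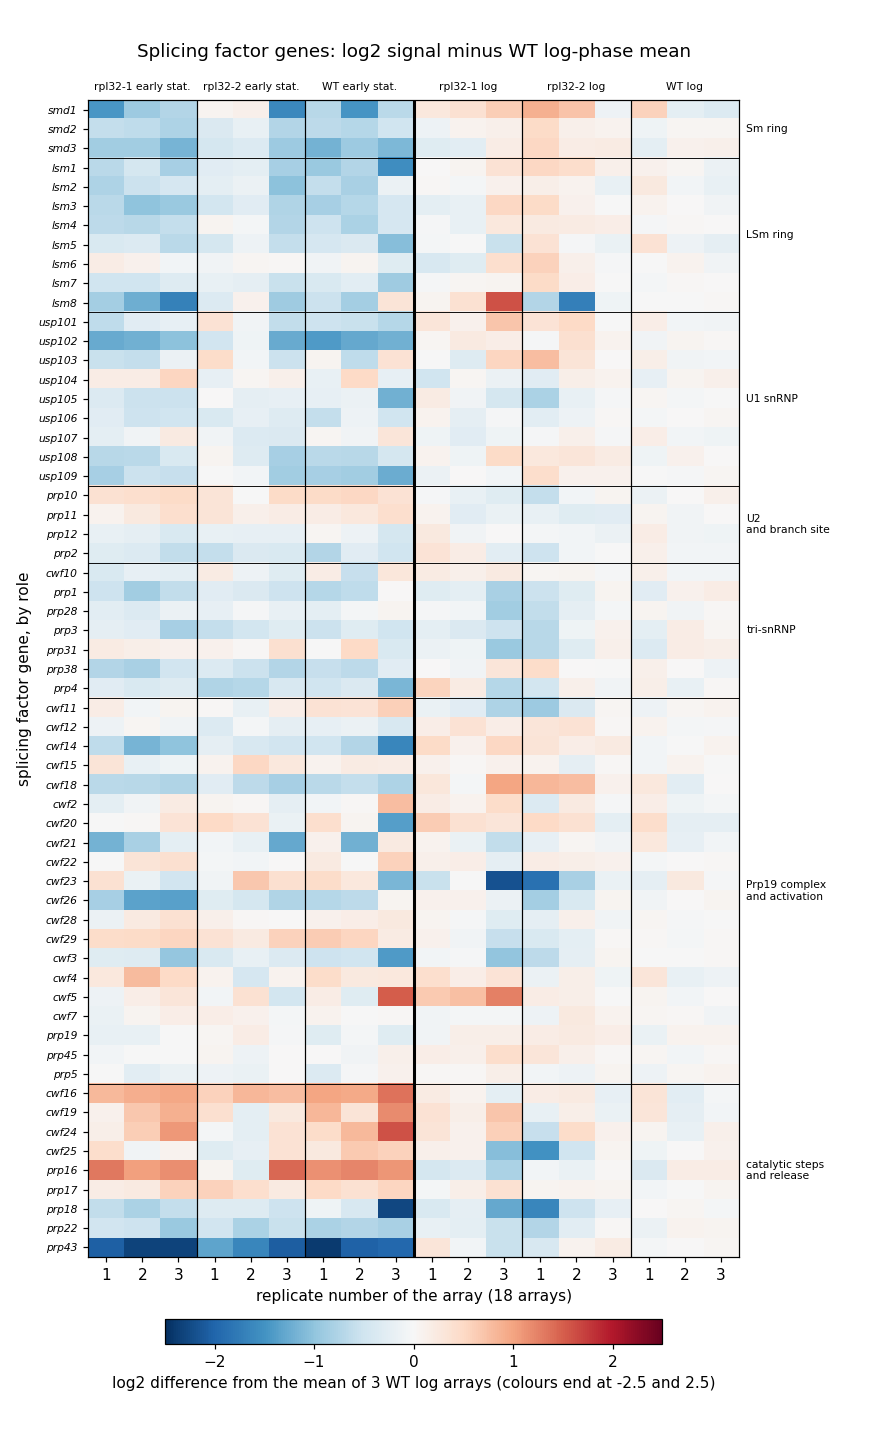
Log2 signal of the 60 splicing factor genes (rows, grouped by role) on each of the 18 arrays (columns, by group and replicate), drawn as the difference from the mean of the 3 WT log arrays. Early stationary arrays are blue (lower) for most Sm, LSm and U1 genes and for prp43 and red (higher) for cwf16, and for smd3, lsm1, usp102, prp43 and prp16 the rpl32-2 early stationary arrays 1 and 2 are paler than array 3.

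In early stationary phase against log phase, a subset of the splicing genes was lower in each of the 3 strains, led by the helicase gene prp43, by genes of the Sm and LSm rings and by genes of the U1 snRNP. A smaller set that included cwf16 was higher, and prp16 was higher past the test in rpl32-1 and WT but not in rpl32-2. On arrays labelled rpl32-1, 25 of the 60 members passed the test (41.7%, against 50.3% of all probe sets), 5 higher (8.33%, against 22.6%) and 20 lower (33.3%, against 27.7%). On arrays labelled rpl32-2, 16 passed (26.7%, against 34.3%), 4 higher (6.67%, against 15.9%) and 12 lower (20.0%, against 18.5%). In WT, 26 passed (43.3%, against 43.9%), 7 higher (11.7%, against 19.2%) and 19 lower (31.7%, against 24.7%). In the values as deposited, whose distributions differed between arrays, 0, 0 and 1 members passed in rpl32-1, rpl32-2 and WT. With the sets of like arrays as a block on those values the split in rpl32-1 was 2 higher and 2 lower, and after normalization over all probe sets that in rpl32-2 was 5 higher and 9 lower. After the normalization used here the members were called about as often as, or less often than, the genes of the array as a whole, and the count as such was no mark of splicing genes. The median change of the members was -0.28, -0.14 and -0.27 in the strains labelled rpl32-1, rpl32-2 and WT, against -0.09, -0.04 and -0.07 over all probe sets.

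At least 2-fold and past the test, 1 member was higher and 7 were lower on arrays labelled rpl32-1 (11.7% and 11.1% of all probe sets), none was higher and 2 were lower on arrays labelled rpl32-2 (5.72% and 6.09%), and 2 were higher and 4 lower in WT (9.74% and 9.09%). The changes of the 60 members correlated between strains, which share no arrays, with Pearson's r of 0.77 between rpl32-1 and WT, 0.72 between rpl32-2 and WT, and 0.74 between rpl32-1 and rpl32-2, against 0.88, 0.81 and 0.87 over all probe sets. Genes of 1 array are not independent of each other, and no test was made of these values. In all 3 strains 11 members passed as lower (cwf18, lsm1, lsm3, lsm7, prp38, prp43, smd2, smd3, usp102, usp108 and usp109) and 3 passed as higher (cwf16, cwf29 and prp10). No member passed in opposite directions in 2 strains, and 32 of the 60 passed in at least 1 strain. The same counts over all probe sets are not given here. These counts therefore do not set the splicing genes apart from the array as a whole.

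Leaving out both dim arrays, WT early stationary array 3 and rpl32-1 log array 3, moved calls in all strains. In this setting the remaining arrays were normalized anew, and the spread was again estimated over all groups together. Then 26, 20 and 22 members passed in rpl32-1, rpl32-2 and WT, where 53.9%, 43.0% and 45.1% of all probe sets did. In rpl32-1 4 members lost their call (lsm2, prp11, usp101 and usp106) and 5 gained one (cwf5, lsm6, prp4, prp12 and usp105). In rpl32-2 none lost it and 4 gained one (cwf14, cwf23, lsm4 and prp4). In WT 7 lost it (cwf3, cwf19, cwf24, lsm5, lsm7, usp101 and usp106) and 3 gained one (cwf26, lsm2 and prp1).

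**Figure D2:**
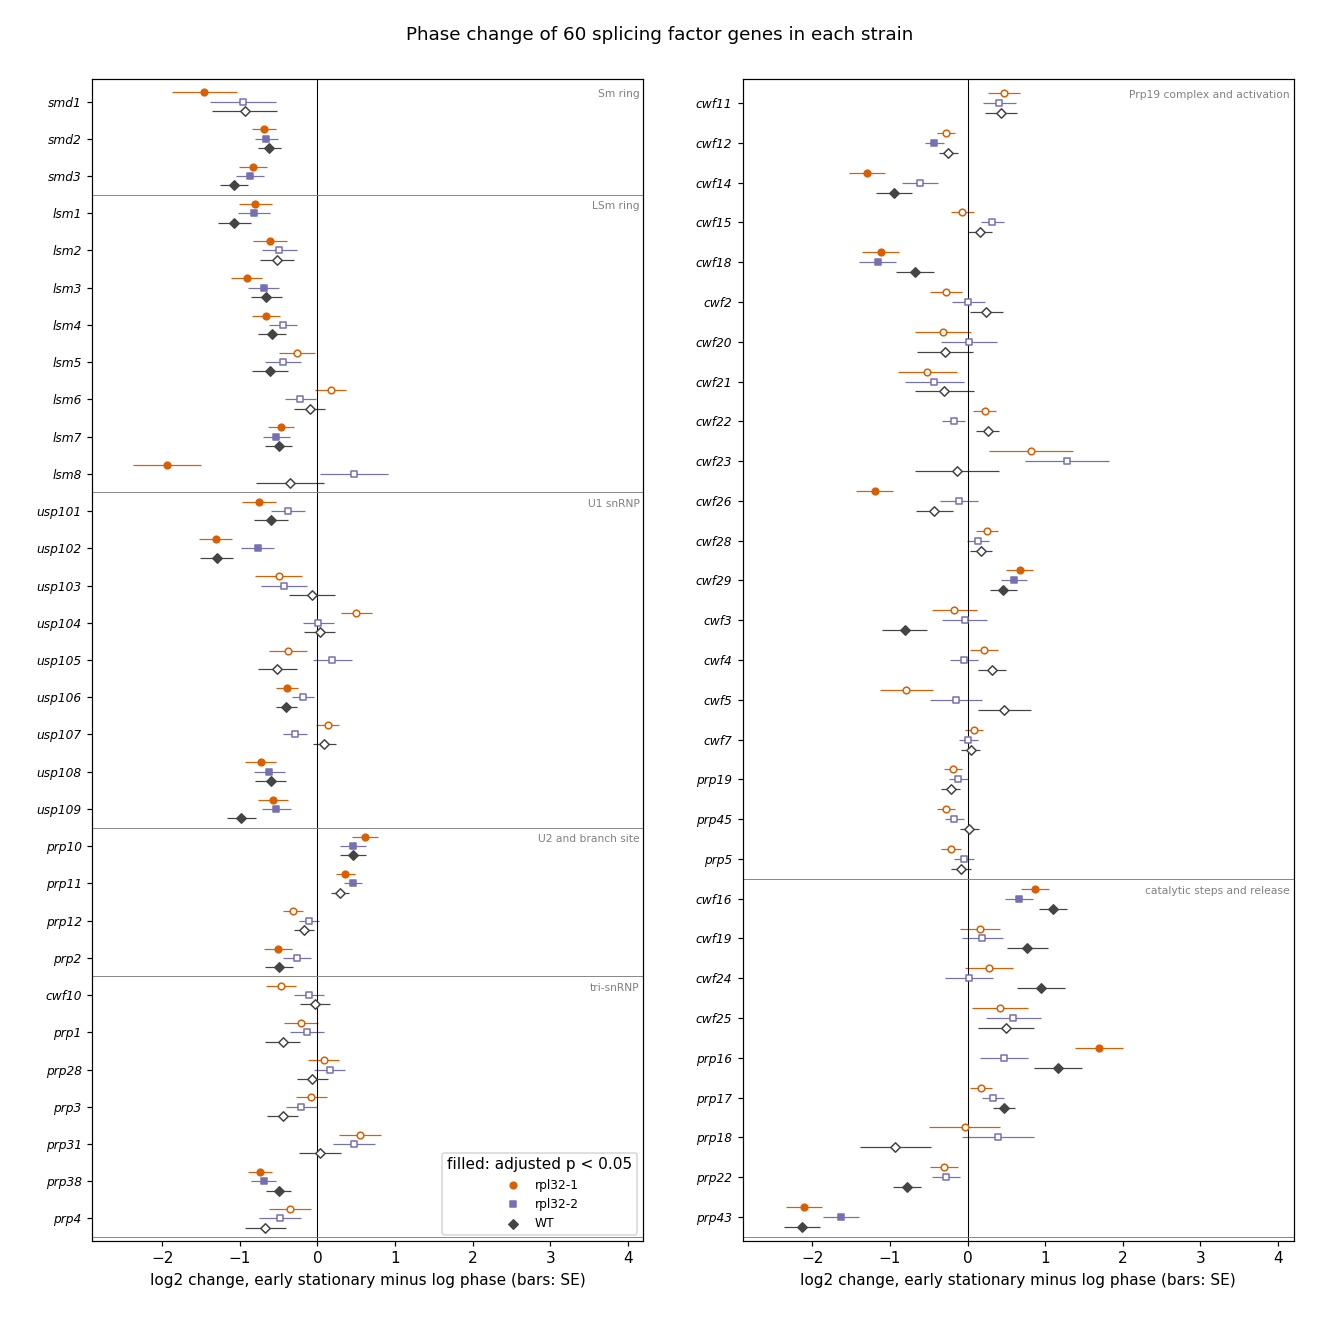
Change of each of the 60 genes in log2 units, early stationary minus log phase, in the strains labelled rpl32-1 (circles), rpl32-2 (squares) and WT (diamonds), with bars for the SE and filled symbols for adjusted p below 0.05. The 3 symbols lie close together for smd2, lsm7 and prp10, while prp16 ran to 1.69 in rpl32-1, 0.47 in rpl32-2 and 1.16 in WT.

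Of the 3 genes of the Sm ring, 3, 2 and 2 were lower past the test in rpl32-1, rpl32-2 and WT, where 27.7%, 18.5% and 24.7% of all probe sets were lower. The gene smd3 (SPBC19C2.14), for the ring protein SmD3, read 10.88, 10.89 and 10.60 in early stationary phase against 11.46, 11.48 and 11.93 in log phase on arrays labelled rpl32-1, and 11.31, 11.41 and 10.84 against 12.27, 11.94 and 11.96 on arrays labelled rpl32-2. In WT it read 10.58, 10.84 and 10.63 in early stationary phase, against 11.51, 11.86 and 11.89 in log phase. The phases did not overlap in any strain, although rpl32-2 early stationary arrays 1 and 2 stood above all other early stationary arrays. The changes of smd3 were -0.83 ± 0.18, -0.87 ± 0.18 and -1.07 ± 0.18 (SE) in rpl32-1, rpl32-2 and WT (limma adjusted p = 0.00156, 0.00216 and 0.00031), the last a fold of 2.10. The gene smd2, for SmD2, read 10.88, 10.84 and 10.71 in early stationary phase against 11.34, 11.56 and 11.61 in log phase in rpl32-1, 11.11, 11.28 and 10.75 against 11.95, 11.61 and 11.56 in rpl32-2, and 10.82, 10.76 and 10.97 against 11.36, 11.53 and 11.53 in WT. Its phases were also apart in every strain, and its changes of -0.69, -0.66 and -0.62 (each with SE 0.15) differed by less than their errors (adjusted p = 0.0014, 0.0035 and 0.0034).

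The third member of the ring on the list, smd1 for SmD1, varied more. It read 9.01, 9.55 and 9.73 in early stationary phase against 10.74, 10.84 and 11.09 in log phase in rpl32-1, with no overlap. In rpl32-2 it read 10.53, 10.60 and 8.85 against 11.35, 11.18 and 10.33, and in WT 9.77, 9.0 and 9.80 against 11.05, 10.22 and 10.13. In rpl32-2 the phases overlapped, since early stationary arrays 1 and 2 lay above log array 3. The change of smd1 passed only in rpl32-1 (-1.46 ± 0.42, adjusted p = 0.0102) and was -0.96 ± 0.42 in rpl32-2 and -0.94 ± 0.42 in WT (adjusted p = 0.0928 and 0.0838), and the differences between strains in these changes did not pass the test either.

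In the LSm ring the genes of 6, 3 and 5 of the 8 members were lower past the test in rpl32-1, rpl32-2 and WT (27.7%, 18.5% and 24.7% of all probe sets), and none was higher past it (22.6%, 15.9% and 19.2%). Lsm1, the subunit found in the cytoplasmic ring alone (gene lsm1, SPBC3D6.08C), showed the largest change of the ring in WT. Its gene read 10.18, 10.40 and 10.02 in early stationary phase against 10.86, 10.92 and 11.21 in log phase in rpl32-1, and 10.56, 10.60 and 10.02 against 11.37, 11.29 and 10.98 in rpl32-2. In WT it read 9.91, 10.12 and 9.30 against 10.95, 10.89 and 10.70. The phases did not overlap in any strain, and WT early stationary array 3, 1 of the 2 dim arrays, gave the lowest value. The changes of lsm1 were -0.80, -0.82 and -1.07 (SE 0.21 each; adjusted p = 0.00588, 0.00807 and 0.001), and without both dim arrays the changes were -0.67, -0.80 and -0.80.

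The genes of Lsm3 and Lsm7, subunits of both rings, were also lower in all 3 strains. For lsm3 the early stationary arrays read 9.56, 9.24 and 9.30 in rpl32-1 (log phase 10.00, 10.06 and 10.75), 9.78, 9.95 and 9.49 in rpl32-2 (log phase 10.72, 10.35 and 10.22) and 9.40, 9.53 and 9.81 in WT (log phase 10.32, 10.24 and 10.15). For lsm7 they read 11.24, 11.23 and 11.41 in rpl32-1 (log phase 11.70, 11.79 and 11.80), 11.55, 11.50 and 11.17 in rpl32-2 (log phase 12.22, 11.89 and 11.72) and 11.36, 11.47 and 10.84 in WT (log phase 11.69, 11.77 and 11.74). Neither gene's phases overlapped in any strain. The changes of lsm3 were -0.91, -0.69 and -0.66 (SE 0.20) and those of lsm7 -0.47, -0.53 and -0.50 (SE 0.17) in rpl32-1, rpl32-2 and WT. All 6 passed the limma test, with adjusted p between 0.00189 and 0.0279, but without both dim arrays the change of lsm7 in WT was -0.31 and did not pass (adjusted p = 0.11).

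Other genes of the LSm ring passed in some strains. The gene lsm4 read 10.64, 10.60 and 10.70 in early stationary phase against 11.26, 11.12 and 11.56 in log phase in rpl32-1, 11.37, 11.24 and 10.56 against 11.53, 11.51 and 11.46 in rpl32-2, and 10.78, 10.51 and 10.88 against 11.26, 11.32 and 11.31 in WT. On rpl32-2 early stationary arrays 1 and 2 it lay within 0.3 of that strain's log arrays, and it passed in rpl32-1 (-0.66 ± 0.18) and WT (-0.58 ± 0.18) but not in rpl32-2 (-0.44 ± 0.18, adjusted p = 0.0715), where it passed without both dim arrays (-0.43, adjusted p = 0.048). The gene lsm2 read 10.36, 10.59 and 10.71 against 11.15, 11.09 and 11.24 in rpl32-1, where it passed (-0.61 ± 0.22, adjusted p = 0.0333). With both dim arrays left out it passed in WT (-0.69, adjusted p = 0.0243) and not in rpl32-1 (-0.55, adjusted p = 0.0531). Its values were 10.88, 10.98 and 10.10 against 11.27, 11.21 and 10.94 in rpl32-2, and 10.54, 10.31 and 10.98 against 11.38, 11.07 and 10.94 in WT, so that the phases overlapped in both. The gene lsm5 read 9.97, 10.01 and 9.67 against 10.31, 10.34 and 9.79 in rpl32-1, 9.92, 10.22 and 9.76 against 10.72, 10.32 and 10.18 in rpl32-2, and 9.94, 10.00 and 9.29 against 10.71, 10.23 and 10.12 in WT, and passed only in WT (-0.61 ± 0.23, adjusted p = 0.0441). Without both dim arrays the change was -0.36 and did not pass (adjusted p = 0.149).

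The remaining LSm genes did not share the direction of the ring in every strain. The gene lsm6 read 11.34, 11.27 and 11.08 against 10.76, 10.86 and 11.57 in rpl32-1, 11.06, 11.21 and 11.19 against 11.73, 11.28 and 11.12 in rpl32-2, and 11.06, 11.23 and 10.86 against 11.15, 11.25 and 11.06 in WT. Its phases overlapped in each strain and its changes of 0.17, -0.22 and -0.10 (SE 0.20) did not pass. In rpl32-1 lsm6 was higher past the test without both dim arrays (0.41 ± 0.16, adjusted p = 0.042). Lsm8 takes the place of Lsm1 in the nuclear ring. Its gene read 5.31, 4.93 and 4.47 against 6.23, 6.54 and 7.75 in rpl32-1, 5.81, 6.26 and 5.27 against 5.42, 4.45 and 6.05 in rpl32-2, and 5.62, 5.32 and 6.48 against 6.15, 6.15 and 6.18 in WT. The change of -1.94 ± 0.44 in rpl32-1 passed (adjusted p = 0.00226), but 2 of its 3 early stationary arrays and 1 of its 3 log arrays were not above background, and the change without both dim arrays was -1.58. In rpl32-2 (0.47 ± 0.44) and WT (-0.35 ± 0.44) the change of lsm8 did not pass.

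Among the 9 genes of the U1 snRNP, which binds the 5′ splice site, 5, 3 and 5 were lower past the test in rpl32-1, rpl32-2 and WT (27.7%, 18.5% and 24.7% of all probe sets) and none was higher past it (22.6%, 15.9% and 19.2%). The gene usp102 (SPBC4B4.07C), for the U1A protein, read 8.61, 8.67 and 8.84 in early stationary phase against 9.91, 10.10 and 10.03 in log phase in rpl32-1, 9.39, 9.75 and 8.60 against 9.83, 10.27 and 9.96 in rpl32-2, and 8.46, 8.59 and 8.67 against 9.77, 9.93 and 9.90 in WT. The phases did not overlap within a strain, but rpl32-2 early stationary array 2 lay within 0.1 of the lowest log arrays, and array 3 lay with WT. The changes were -1.31 ± 0.21, -0.77 ± 0.21 and -1.30 ± 0.21 (adjusted p = 0.000192, 0.0127 and 0.000273). On WT early stationary array 3 usp102 and usp109 were among the genes not above background.

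The gene usp109, for an RNA-binding protein of the U1 snRNP, read 8.97, 9.25 and 9.23 against 9.65, 9.80 and 9.72 in rpl32-1, 9.79, 9.73 and 8.93 against 10.23, 9.90 and 9.91 in rpl32-2, and 8.97, 8.93 and 8.56 against 9.79, 9.76 and 9.84 in WT. Here too the phases were apart in each strain, and rpl32-2 early stationary arrays 1 and 2 lay at the level of the WT log arrays. Its changes were -0.57, -0.53 and -0.98 (SE 0.19; adjusted p = 0.0238, 0.0475 and 0.00114). The gene usp108 changed by -0.73, -0.62 and -0.60 (SE 0.20), past the test in all 3 strains. The genes usp101, for a core U1-specific protein, and usp106, which is luc7 in the reference table, passed as lower in rpl32-1 (-0.75 and -0.39) and WT (-0.60 and -0.40), but in rpl32-2 their values of -0.38 and -0.19 did not pass. None of these 4 calls held without both dim arrays, with -0.55 and -0.33 in rpl32-1 (adjusted p = 0.0553 and 0.0643) and -0.51 and -0.32 in WT (adjusted p = 0.0868 and 0.0818). The other U1 genes (usp103, usp104, usp105 and usp107) passed in no strain, with changes between -0.52 and 0.50, although usp105 passed in rpl32-1 without both dim arrays (-0.53, adjusted p = 0.0244).

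**Figure D3:**
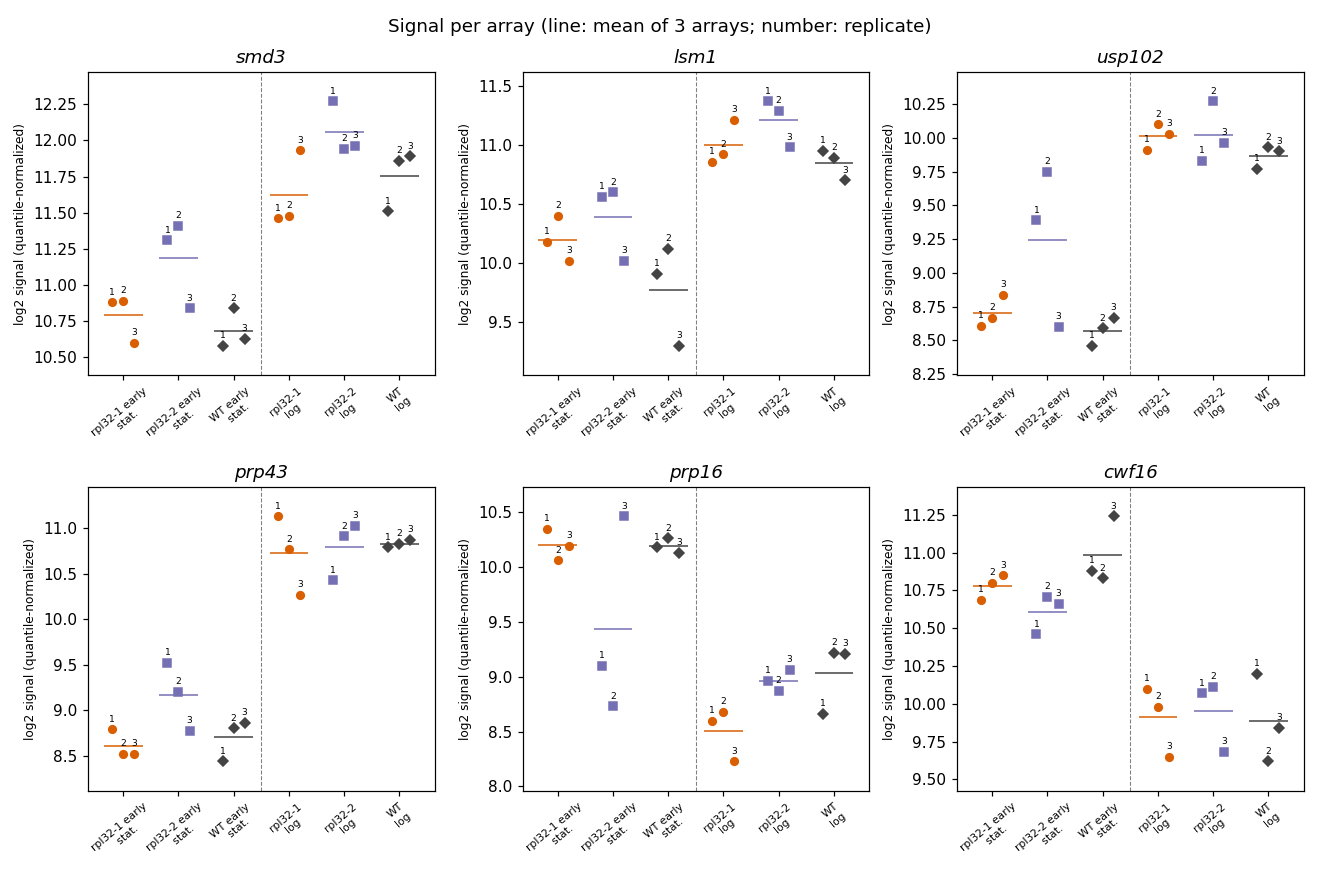
Log2 signal of smd3, lsm1, usp102, prp43, prp16 and cwf16 on each array, by group, with the replicate number beside each point and a line at the mean of the 3 arrays. In rpl32-2 early stationary arrays 1 and 2 read 9.39 and 9.75 for usp102 and 9.10 and 8.73 for prp16, while array 3 read 8.60 and 10.46, as the WT early stationary arrays did.

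Of the 4 genes placed with the U2 snRNP and the branch site, 3, 2 and 2 passed in rpl32-1, rpl32-2 and WT, and of the 7 tri-snRNP genes 1 passed in each strain, where 50.3%, 34.3% and 43.9% of all probe sets passed. Of the branch site genes, prp10, the fission yeast counterpart of the SF3b subunit SF3B1, was higher in all 3 strains. It read 11.01, 11.06 and 11.12 against 10.60, 10.44 and 10.33 in rpl32-1, 10.95, 10.62 and 11.11 against 10.03, 10.57 and 10.70 in rpl32-2, and 11.11, 11.15 and 11.00 against 10.49, 10.64 and 10.77 in WT. Only in rpl32-2 did the phases overlap, where early stationary array 2 lay below log array 3, and the changes were 0.61, 0.46 and 0.46 (SE 0.17; adjusted p = 0.00739, 0.0462 and 0.0386). The gene prp2, for the large subunit of U2AF, which binds the end of the intron, went the other way, with -0.51 ± 0.18 in rpl32-1 and -0.50 ± 0.18 in WT past the test and -0.26 ± 0.18 in rpl32-2 not past it. The gene prp11, for a DEAD-box helicase, was higher past the test in rpl32-1 (0.36 ± 0.12) and rpl32-2 (0.46 ± 0.12) and had 0.29 ± 0.12 in WT (adjusted p = 0.0711). The SF3b gene prp12 passed in no strain. Without both dim arrays prp11 no longer passed in rpl32-1 (0.31, adjusted p = 0.0524) and prp12 did (-0.32, adjusted p = 0.0419). The tri-snRNP gene that passed was prp38, as lower, in each strain (-0.74, -0.69 and -0.50, SE 0.16). The kinase gene prp4 and the genes prp1, prp3, prp28, prp31 and cwf10 had changes between -0.67 and 0.55 that did not pass. Without both dim arrays prp4 was lower past the test in rpl32-1 (-0.65, adjusted p = 0.00478) and rpl32-2 (-0.44, adjusted p = 0.0268), and prp1 in WT (-0.62, adjusted p = 0.0098).

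The Prp19 complex and the factors placed with it made up the largest group, with 20 genes, and most of them did not pass: 4 passed in rpl32-1 (1 higher, 3 lower), 3 in rpl32-2 (1 higher, 2 lower) and 4 in WT (1 higher, 3 lower). These were 20.0%, 15.0% and 20.0% of the group, against 50.3%, 34.3% and 43.9% of all probe sets. The median change of the group was -0.20, -0.05 and -0.04 in rpl32-1, rpl32-2 and WT. The gene cwf18 was lower in all 3 strains. It read 8.35, 8.32 and 8.27 in early stationary phase against 9.30, 8.98 and 10.01 in log phase in rpl32-1, 8.73, 8.36 and 8.19 against 9.85, 9.79 and 9.12 in rpl32-2, and 8.35, 8.42 and 8.24 against 9.28, 8.76 and 9.02 in WT. The early stationary arrays of all strains lay close together, and the log arrays varied by more than 1 unit, with the highest value on the dim rpl32-1 log array 3. Its changes were -1.12, -1.16 and -0.68 (SE 0.24; adjusted p = 0.0017, 0.00243 and 0.0356), and without both dim arrays the value in rpl32-1 was -0.75.

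The gene cwf14, the counterpart of budding yeast BUD31, read 8.49, 7.97 and 8.12 against 9.60, 9.23 and 9.64 in rpl32-1, 8.90, 8.72 and 8.65 against 9.45, 9.29 and 9.36 in rpl32-2, and 8.63, 8.39 and 7.50 against 9.06, 9.11 and 9.21 in WT. Its phases did not overlap in any strain. It passed in rpl32-1 (-1.30 ± 0.23) and WT (-0.95 ± 0.23) and just missed the threshold in rpl32-2 (-0.61 ± 0.23, adjusted p = 0.0505), which it passed without both dim arrays (-0.55, adjusted p = 0.00607). In WT the lowest value came from the dim array 3, and the change without both dim arrays was -0.55. The genes cwf26 and cwf29 code for subunits of the RES complex, which binds the pre-mRNA and helps to retain it in the nucleus in budding yeast, and they moved in opposite directions. For cwf26 the values were 8.81, 8.30 and 8.29 against 9.76, 9.75 and 9.49 in rpl32-1 (-1.20 ± 0.24, adjusted p = 0.000926), while its changes in rpl32-2 (-0.11) and WT (-0.43) did not pass, although in WT it passed without both dim arrays (-0.61, adjusted p = 0.0298). The gene cwf29 was higher in every strain, by 0.67, 0.60 and 0.46 (SE 0.17; adjusted p = 0.00455, 0.0148 and 0.0388).

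Within that group prp19, for the ubiquitin ligase that gives the complex its name, changed by -0.19, -0.12 and -0.22 (SE 0.12) and prp5 and prp45, 2 further core components, by -0.28 to 0.02, none past the test. The gene cwf3 passed in WT alone (-0.81 ± 0.29), where the dim array 3 read 8.02, against 8.92 and 8.94 on the others, and without both dim arrays its change was -0.45 and did not pass (adjusted p = 0.068). The gene cwf12 passed in rpl32-2 alone (-0.43 ± 0.12, adjusted p = 0.0154). The gene cwf23, for a protein with a DnaJ domain, had the highest value of all members in rpl32-2 (1.28 ± 0.54) and did not pass (adjusted p = 0.0793), with 6.77, 7.83 and 8.47 on the log arrays. Without both dim arrays, neither of them of that strain, the change was 1.23 ± 0.35 and passed (adjusted p = 0.0126).

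The factors of the catalytic steps and of product release held the largest decrease in every strain (prp43) and the largest increase in rpl32-1 and WT (prp16). Prp43 is the helicase that takes the spent spliceosome apart and also acts in ribosome assembly. Its gene prp43 (SPBC16H5.10C) read 8.79, 8.52 and 8.52 in early stationary phase against 11.13, 10.77 and 10.27 in log phase in rpl32-1, 9.52, 9.20 and 8.77 against 10.43, 10.91 and 11.03 in rpl32-2, and 8.44, 8.80 and 8.86 against 10.79, 10.83 and 10.87 in WT. The lowest log array stood clear of the highest early stationary array in each strain. The changes of -2.11 ± 0.23, -1.63 ± 0.23 and -2.13 ± 0.23 were 4.32-fold, 3.10-fold and 4.39-fold decreases (adjusted p = 6.89e-06, 0.000136 and 1.52e-05). In WT this gene alone among the members also passed in the values as deposited (-2.77, limma adjusted p = 0.0484). There the dim WT early stationary array 3 had a median over the members of 8.29, against 10.3 and 10.0 on arrays 1 and 2. This favours decreases in the deposited WT values, so the call is no separate support.

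The helicase gene prp16 (SPBC1711.17), whose product acts between the catalytic steps, read 10.35, 10.06 and 10.19 against 8.60, 8.68 and 8.23 in rpl32-1, 9.10, 8.73 and 10.46 against 8.96, 8.87 and 9.06 in rpl32-2, and 10.18, 10.26 and 10.13 against 8.66, 9.22 and 9.21 in WT. In rpl32-1 and WT the phases lay far apart, while in rpl32-2 early stationary arrays 1 and 2 were at the level of its log arrays and array 3 was the highest of all 18. The change passed in rpl32-1 (1.69 ± 0.31, 3.24-fold, adjusted p = 0.000513) and WT (1.16 ± 0.31, 2.23-fold, adjusted p = 0.00844) but not in rpl32-2 (0.47 ± 0.31, adjusted p = 0.273), and the difference between rpl32-2 and WT in this change did not pass (-0.69 ± 0.45, adjusted p = 0.491). On the dim rpl32-1 log array 3, which gave the lowest value, prp16 was not above background. Without both dim arrays its changes were 1.42 in rpl32-1 and 1.09 in WT (limma adjusted p = 0.00319 and 0.0174). The gene cwf16 (SPAC9.13C), the counterpart of budding yeast YJU2, a factor of the first catalytic step, read 10.69, 10.80 and 10.85 against 10.10, 9.98 and 9.65 in rpl32-1, 10.46, 10.71 and 10.66 against 10.07, 10.11 and 9.68 in rpl32-2, and 10.88, 10.83 and 11.24 against 10.20, 9.62 and 9.84 in WT. It was higher in early stationary phase in every strain with no overlap, by 0.87, 0.66 and 1.10 (SE 0.18; adjusted p = 0.000979, 0.0104 and 0.000219).

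Further genes of the catalytic steps passed in WT alone. The gene prp22, for the helicase that frees the mRNA, read 9.50, 9.56 and 9.48 against 10.14, 10.37 and 10.36 in WT (-0.78 ± 0.18, adjusted p = 0.0031), with -0.31 in rpl32-1 and -0.28 in rpl32-2. The gene cwf24, for a ring finger protein, read 9.13, 9.48 and 10.26 against 8.73, 8.49 and 8.79 in WT (0.95 ± 0.31), and cwf19 read 9.82, 9.31 and 10.18 against 9.30, 8.77 and 8.92 (0.77 ± 0.26), in both cases with the highest value on the dim array 3. Without both dim arrays their changes in WT were 0.57 and 0.51 and no longer passed (adjusted p = 0.112 and 0.0932). The second-step gene prp17 had 0.47 ± 0.14 in WT. In rpl32-1 and rpl32-2 the values of these 3 genes lay between 0.02 and 0.33 and did not pass, and none of the differences between strains in phase change passed. The dim gene prp18 and the gene cwf25 passed in no strain.

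Spliceosome genes outside the naming rule were counted from a list of 52 symbols, 34 of which had a probe set. Of these, 6 were higher and 13 lower past the test in rpl32-1, 3 higher and 9 lower in rpl32-2, and 6 higher and 10 lower in WT, with median changes of -0.34, -0.22 and -0.13. In either direction these were 55.9%, 35.3% and 47.1% of the 34 genes, against 50.3%, 34.3% and 43.9% of all probe sets. The F subunit of the Sm ring, smf1, was lower in all strains (-1.50, -1.15 and -1.71), as were dim1, for a small tri-snRNP protein (-1.06, -1.0 and -1.36), and dbr1, for the enzyme that opens the excised lariat (-1.20, -0.61 and -0.79). The second-step gene slu7 was higher in all (0.89, 0.69 and 0.76). Not all genes of the list moved alike: aar2 was higher past the test in rpl32-1 (0.97) and WT (1.03), with -0.06 in rpl32-2. Of 6 measured partners of the cytoplasmic LSm ring in mRNA decay, 2 were higher and 1 lower in rpl32-1, 2 higher in rpl32-2 and 1 higher in WT. In either direction this is 50.0%, 33.3% and 16.7%, against 50.3%, 34.3% and 43.9% of all probe sets. The decapping enzyme gene dcp2 was higher in each strain (0.96, 0.62 and 0.52), on the arrays on which lsm1 was lower.

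**Figure D4:**
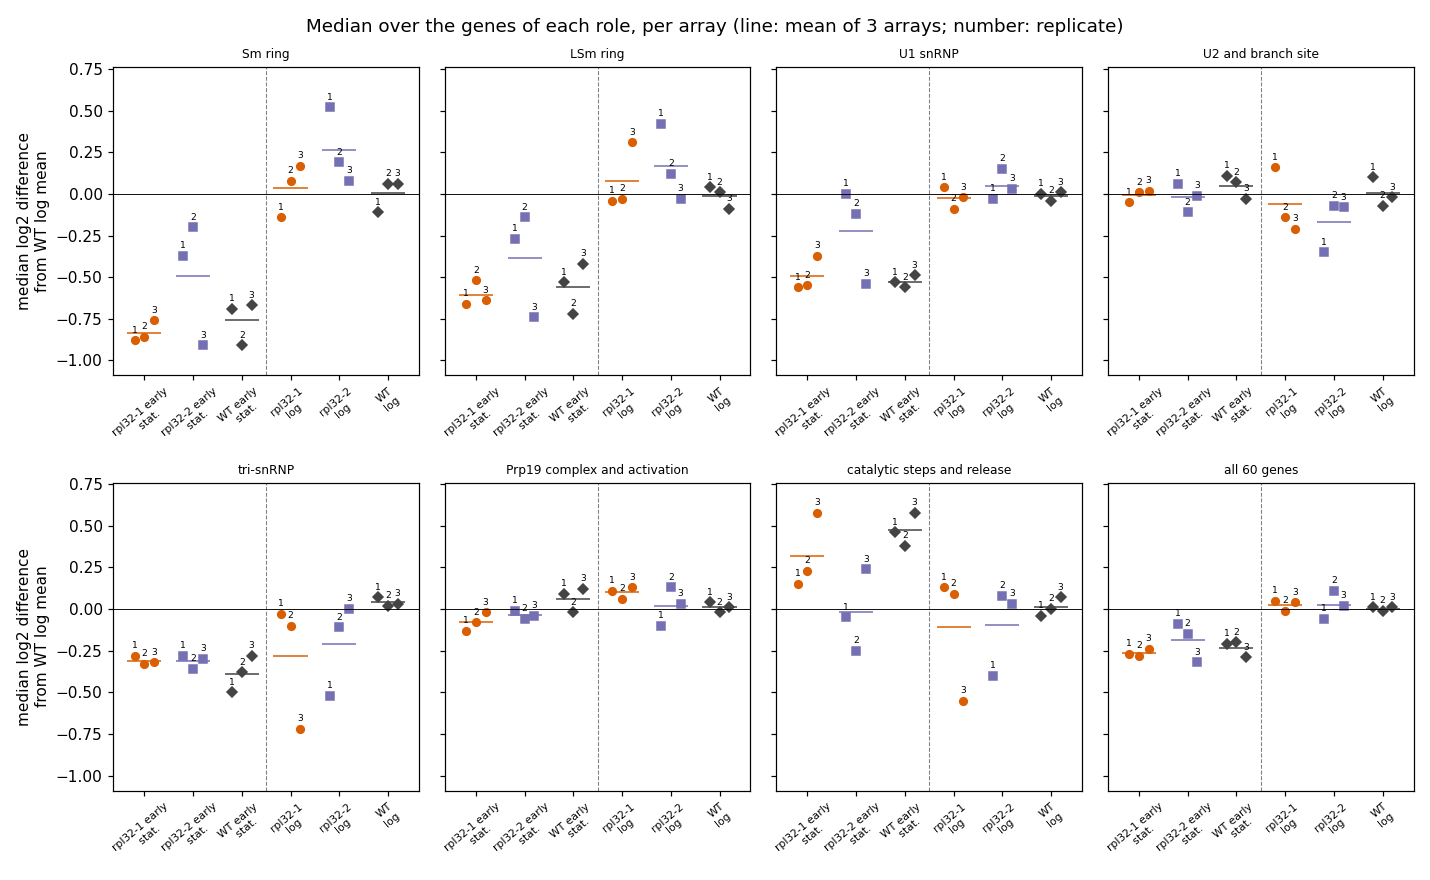
Median over the genes of each role of the log2 difference from the WT log mean, for each array by group, with the replicate number at each point and a line at the mean of 3 arrays. The early stationary U1 medians are -0.53, -0.56 and -0.49 in WT and -0.54 on rpl32-2 array 3, while rpl32-2 arrays 1 and 2 lie near 0.

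Between strains in the same phase, no member passed the test. In log phase, no member passed between rpl32-1 and WT (0.0% of all probe sets called). At an unadjusted p below 0.05 there was 1 member in this comparison (6.09% of all probe sets; smallest limma adjusted p among members 0.802). Between rpl32-2 and WT in log phase none passed either (0.0%), with 1 member (2.76% of all probe sets) at the unadjusted threshold and a smallest adjusted p of 0.961. In early stationary phase none passed between rpl32-1 and WT (0.0%), with 1 member (4.02% of all probe sets) at the unadjusted threshold and a smallest adjusted p of 0.927. Nor did any pass between rpl32-2 and WT (0.0%), but 12 members (21.0% of all probe sets) lay below the unadjusted threshold, and the smallest adjusted p, that of usp109, was 0.106. The median difference of the members from WT in log phase was 0.02 for rpl32-1 and -0.01 for rpl32-2, and in early stationary phase it was -0.03 and 0.04. Neither did the difference in phase change between a strain and WT pass for any member (0.0% in both), with 3 members for rpl32-1 (6.64% of all probe sets) and 0 for rpl32-2 (12.2%) at the unadjusted threshold. Among the members with the largest differences in log phase, cwf23 read 8.09, 8.64 and 6.47 in rpl32-1 and 6.77, 7.83 and 8.47 in rpl32-2, against 8.42, 8.89 and 8.62 in WT, and the differences of -0.91 ± 0.54 and -0.96 ± 0.54 did not pass. The gene cwf5 read 8.87, 8.95 and 9.47 in rpl32-1, all above 8.27, 8.13 and 8.22 in WT, with a difference of 0.89 ± 0.34 (adjusted p = 0.802).

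The early stationary arrays labelled rpl32-2 differed among themselves in the splicing genes. Of the 26 members that passed between the phases in WT, 4, 4 and 1 (15.4%, 15.4% and 3.85%) lay nearer to the WT log mean than to the WT early stationary mean on rpl32-1 early stationary arrays 1, 2 and 3, against 7.84%, 7.45% and 5.12% of all 1289 probe sets that passed in WT. On the rpl32-2 early stationary arrays 13, 17 and 4 members (50.0%, 65.4% and 15.4%) lay nearer to the log mean, against 46.6%, 41.9% and 8.77% of all 1289. The splicing genes thus lay on the log side on arrays 1 and 2 more often than on array 3, as did all probe sets, with a higher share among the members on array 2, and no test was made of these shares. The U1 medians on these 3 arrays were -0.00, -0.12 and -0.54 and the Sm medians -0.37, -0.20 and -0.91, relative to the WT log mean. Among genes known for log phase, adg1, eng1 and cdc18 moved alike. The gene adg1, for a cell surface protein, read 11.94, 11.42 and 6.91 on these arrays. In WT it read 6.45, 5.82 and 7.08 in early stationary and 11.57, 11.62 and 11.54 in log phase. The log-phase gene gln1 lay between the phases on arrays 1 and 2, at 11.76 and 11.71. In WT it read 9.82, 9.99 and 9.66 in early stationary and 13.08, 12.96 and 13.02 in log phase. The early stationary gene gld1 read 11.52 and 12.31 on arrays 1 and 2. These lay nearer to WT early stationary (13.28, 12.93 and 12.56) than to WT log phase (7.71, 7.65 and 7.66). The part of growth phase in these differences was not tested.

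Leaving out rpl32-2 early stationary array 3 changed the calls. Then 8 members passed between rpl32-2 and WT in early stationary phase, 6 higher (11.7% of all probe sets were) and 2 lower (7.87%). The higher members were usp102 (1.01 ± 0.15), usp109 (0.95 ± 0.15), lsm1 (0.81 ± 0.21), usp101 (0.75 ± 0.21), smd3 (0.68 ± 0.18) and lsm4 (0.59 ± 0.14), and the lower ones were prp16 (-1.28 ± 0.19) and cwf24 (-1.12 ± 0.35). In the difference of phase changes, usp102 (0.86 ± 0.20), usp109 (0.73 ± 0.20) and prp16 (-1.22 ± 0.25) passed, with 4.8% of all probe sets higher and 2.76% lower. The members were thus called no more often than all probe sets, in either comparison and direction. The genes named had passed between the phases in WT, and each lay in the direction of the WT log arrays. For usp101 and cwf24 that WT call was lost without both dim arrays (limma adjusted p = 0.0868 and 0.112). Both comparisons use the same WT early stationary arrays, so the direction toward WT log phase was likely beforehand and is no separate support. How often all probe sets so called lay in that direction is not given here. In the deposited values, compared only between arrays of like distribution, rpl32-2 array 1 minus WT array 1 gave 0.87 for usp102 and -0.92 for prp16, while rpl32-2 array 3 minus WT array 2 gave 0.03 and 0.19.

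The deposited values did not share 1 distribution, and the 18 arrays fell into 5 sets of like distribution. Within a set, deposited values were compared without further scaling, although the ranked values of 2 arrays still differed by up to 0.175 on average. Whether the arrays of a set were processed together is not known. In WT, 1 early stationary array and 1 log array lay in the first set, and 1 early stationary and 2 log arrays in the second. All 26 members that passed in WT had the same sign of change within both sets. For prp43 the differences were -2.11 and -1.77, for usp102 -1.13 and -1.08, for smd3 -0.91 and -1.01, for prp16 1.38 and 0.97 and for cwf16 0.65 and 1.04. For rpl32-2, array 3 of both phases lay in the second set, and all 16 members that passed had the same sign there. In both strains these arrays were among those that gave the calls. Equal signs were therefore likely beforehand and are no separate support for the calls. The share of equal signs among all probe sets that passed was not counted. No set held both phases of rpl32-1, so its changes rest on the normalization alone.

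**Figure D5:**
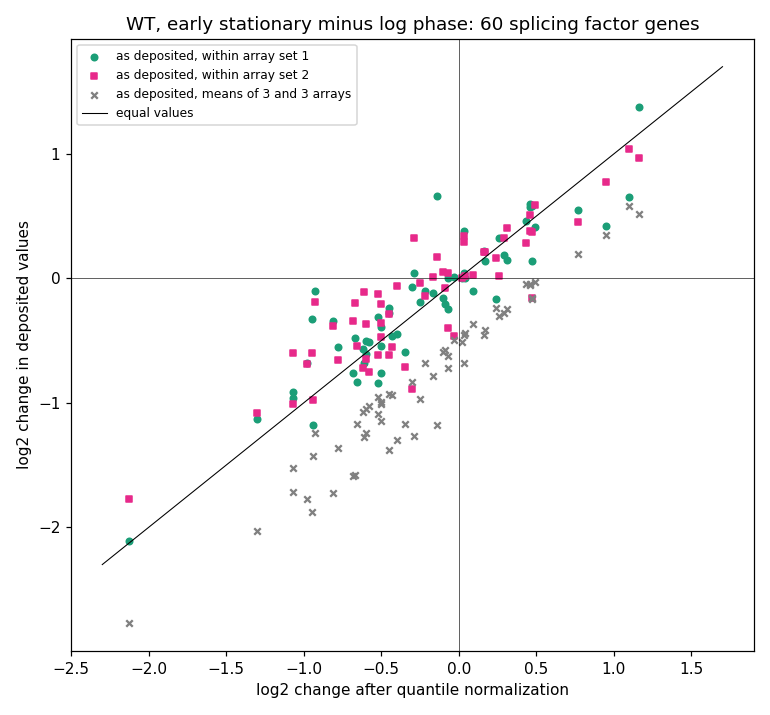
Change between early stationary and log phase in WT for the 60 genes in the deposited log2 values (vertical axis), within the first set of arrays (circles), within the second (squares) and over all 6 arrays (crosses), against the change after quantile normalization (horizontal axis, log2). Circles and squares scatter about the line of equal values, and the crosses lie below it, with a median of -0.93 against -0.27.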

How the data were processed

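Total RNA was extracted with Trizol, and biotin-labelled cRNA was hybridised to Affymetrix Yeast Genome arrays, 3 for each of 6 groups. Per the labels, the authors used Partek and RMA (background correction, quantile normalization, probe summary), and the deposited table holds log2 signals of 10928 probe sets. These values did not share 1 distribution: by single linkage at a mean difference of 0.2 between ranked values, the arrays formed 5 sets. The sources used here do not state in how many runs RMA was applied. The 2937 probe sets annotated to named *S. pombe* genes were therefore quantile-normalized together, and limma 3.58.1 (R 4.3.3) fitted 6 group means with Benjamini-Hochberg adjustment over all 2937. The fit was also run on simulated data with independent noise. Those data held no array sets and no dim arrays, so that run says nothing on how the fit handles them. The authors' methods used a t-test with a 2-fold threshold, which was run as an alternative. Alternatives were the deposited values, centring, normalization over all probe sets, array sets as a fixed or random block, the replicate number as a block, array weights, a trend, only the 2 groups compared, a filter on dim probe sets and leaving out each array; leaving out both dim arrays and the comparisons within sets were added after seeing the data. All members could be named; values per array were given for those that passed at 2-fold in any comparison, for the Sm and LSm rings and for the largest changes. The members and lists were chosen with earlier results of these data known. Array number limits the precision. Arrays carry no read depth. No sequences or probe positions were analysed here.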

Additional observations from a re-analysis of the deposited data

How the results depend on the processing

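Counts below are of members passing between early stationary and log phase in rpl32-1, rpl32-2 and WT, 25, 16 and 26 as reported. They were 0, 0 and 1 in the values as deposited, 4, 5 and 18 with the array sets as a fixed block on those values, 22, 10 and 12 after centring, and 39, 25 and 34 with array weights (68.3%, 53.9% and 64.0% of all probe sets), whose fit stopped before it converged. The methods' t-test with 2-fold gave 8, 2 and 6, as did the adjusted limma test with 2-fold, and the t-test after Benjamini-Hochberg gave 17, 4 and 17. With the array sets as a block, the 4 members in rpl32-1 were 2 higher and 2 lower, and normalization over all probe sets gave 5 higher and 9 lower in rpl32-2. Array weights also gave 16 members for rpl32-1 and 11 for rpl32-2 against WT in log phase, 21 for rpl32-2 against WT in early stationary phase, and 2 and 13 for the differences in phase change of rpl32-1 and rpl32-2 from WT, where 33.8%, 13.4%, 31.9%, 7.08% and 23.9% of all probe sets were called. Leaving out 1 array at a time gave 21 to 29, 9 to 18 and 13 to 28, with 9 without rpl32-2 log array 1, and 13, 16, 17 and 17 without WT log arrays 2, 1 and 3 and WT early stationary array 1. It gave 0 to 8 for rpl32-2 against WT in early stationary phase and 0 to 3 for its difference in phase change, the highest without rpl32-2 early stationary array 3, and 0 throughout in the other comparisons.

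In the deposited values the sign turned for cwf12 (0.41), lsm3 (0.06), prp38 (0.21), usp102 (0.10), usp108 (0.03) and usp109 (0.28) in rpl32-2 and for cwf29 (-0.05), prp10 (-0.04) and prp17 (-0.16) in WT, where the median change of all members moved to 0.63 and -0.93. No other sign of a member that passed turned under any alternative tried. Replicate numbers did not pair the arrays (correlation of deviations between arrays of the same number -0.414 to 0.475, median 0.0615), and the replicate block gave 28, 17 and 24 members between the phases and 0 in all other comparisons. Of the members that passed, 18 of 25, 8 of 16 and 11 of 26 passed whichever array was left out.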
